A study of Mus musculus with 24 samples.

Results

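Of the 1881 mouse miRNAs on the arrays, 4 with a known link to inflammation are described here: mmu-miR-21a-5p, mmu-miR-146a-5p, mmu-miR-146b-5p and mmu-miR-155-5p. They were taken by name. The question was in which tissues each of them can be measured, and whether any of them moves when a lens is worn.

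The data are 24 one-color arrays from C57BL/6J mice, covering cornea, iris, lens, retina, RPE/choroid (labelled choroid), sclera and a pair of brain regions labelled SCN and LGN. Each of these 8 tissues was measured in 3 lens groups. Normal eyes wore nothing, and in the myopia group a −30 D lens, which moves the focus behind the retina, was fixed on the right eye from 3 weeks of age for 3 weeks. The eyes of the third group wore a 0 D lens, and neither this group nor the brain samples are described in the study's text. For the ocular tissues of the normal and −30 D mice, which were male, equal amounts of RNA from 3 mice were pooled. All groups are of the same strain, and no genetic change is given. Since each tissue and lens group has 1 array, a change within a single tissue cannot be tested, and ± values of single arrays are the measurement error within that array. Each of the 3 slides held the 8 tissues of 1 lens group, so that lens group and slide cannot be told apart in any comparison below.

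miRNAs are short RNAs that pair with messenger RNAs through their seed, the bases near the 5′ end, and lower the output of those messages. miR-21 is abundant in many cell types and is known to rise with injury, fibrosis and inflammation. miR-146a is induced by the transcription factor NF-κB and represses the signalling proteins Traf6 and Irak1, which closes a feedback loop on inflammatory signalling. miR-155 is made in activated macrophages and lymphocytes and represses Socs1, an inhibitor of cytokine signalling.

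The mature sequences are shown because the array reads these letters and because the miR-146 forms differ so little. They are from RefSeq (GRCm38.p6), are written 5′ to 3′, and have the seed (bases 2 to 8) in capitals.
mmu-miR-21a-5p: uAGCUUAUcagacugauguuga
mmu-miR-146a-5p: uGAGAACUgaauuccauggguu
mmu-miR-146b-5p: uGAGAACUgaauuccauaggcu
mmu-miR-155-5p: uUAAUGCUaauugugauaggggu

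mmu-miR-146a-5p and mmu-miR-146b-5p share the seed GAGAACU. They have the same base at 20 of 22 positions and differ by G18A and U21C, with the base of mmu-miR-146a-5p first and positions counted from 1 at the 5′ end. The seed of mmu-miR-21a-5p is also that of mmu-miR-21c, and mmu-miR-155-5p was the only mature miRNA of its seed in the RefSeq table. mmu-miR-21a-5p lies at chr11:86584120-86584141 on the minus strand, within the protein-coding gene Vmp1. mmu-miR-146a-5p lies at chr11:43374435-43374456 on the minus strand, in the gene Mir146, with no other gene of the table over it. mmu-miR-146b-5p lies at chr19:46342790-46342811 on the plus strand, within the long non-coding RNA gene Gm36493. mmu-miR-155-5p lies at chr16:84714143-84714165 on the plus strand, within its host transcript Mir155hg.

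A miRNA was detected on an array when at least 1 of its probes had a signal above 3 times its error, and its signal was the sum over such probes. Signals were scaled between arrays and are in arbitrary units, so that they can be compared between arrays for 1 miRNA but not between miRNAs. Between 129 and 249 miRNAs were detected per array (6.86% to 13.2%). The labels of several tissues could be set against markers: miR-205-5p of surface epithelium had a scaled signal of 895 to 1108 in the cornea and at most 8.06 elsewhere, and miR-183-5p of photoreceptors had 8510 to 9710 in the retina and at most 900 elsewhere. miR-199a-3p of connective tissue was highest in the sclera (832 to 929). Of the neuronal miRNAs, miR-9-3p was highest in the SCN and the LGN (1049 to 1417), while miR-124-3p was highest in the retina (10200 to 11410, against 1396 to 2111 in SCN and LGN). Of the pigment cell miRNAs, miR-211-5p was highest in the iris (772 to 906, and at most 190 elsewhere), while miR-204-5p was present in all tissues and highest in the lens (1198 to 1349). The photoreceptor marker was, however, at 520 to 900 in the RPE/choroid and 253 to 658 in the sclera, and the part of retinal RNA in the values of these tissues was not tested. In such bulk samples, fewer cells of a type and less RNA per cell cannot be told apart.

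mmu-miR-21a-5p was the only one of the 4 detected everywhere, on 24 of 24 arrays. In the cornea its scaled signal was 931 ± 84.0 in the normal, 1268 ± 113 in the 0 D and 888 ± 79.6 in the −30 D group. All 3 cornea values lay above every value of the other tissues, and the lowest of them was 2.68 times the highest value of the iris. This separation rests in part on the scaling. Unscaled, in the order normal, 0 D and −30 D, the cornea read 473, 740 and 551 and the iris 348, 668 and 375. The LGN read 309, 515 and 440. The normal cornea array then lay below the 0 D arrays of iris and LGN, although within each lens group the cornea was still highest. In the lens the scaled signal was 57.8 ± 7.32 (normal), 66.9 ± 7.63 (0 D) and 66.3 ± 8.07 (−30 D), the lowest values of the series.

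The other tissues lay between these extremes and close to each other. The signals in the order normal, 0 D and −30 D were 240, 331 and 279 in the iris, 194, 221 and 179 in the retina, and 237, 256 and 251 in the RPE/choroid. They were 244, 266 and 199 in the sclera, 167, 147 and 136 in the SCN, and 231, 311 and 319 in the LGN. The iris, RPE/choroid, sclera and LGN overlapped with one another, while the SCN lay below all of these.

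**Figure D1:**
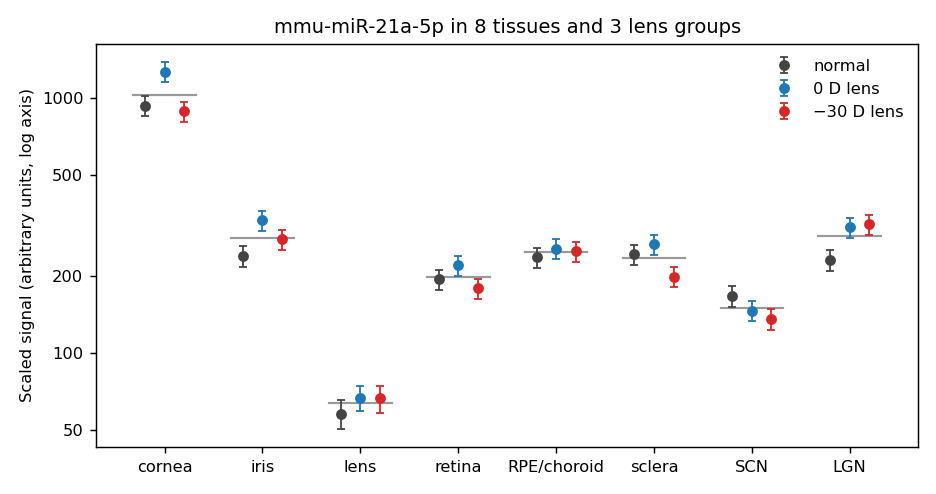
Scaled signal of mmu-miR-21a-5p (arbitrary units, log axis) in 8 tissues. Points are single arrays of the normal, 0 D lens and −30 D lens groups with the error of the signal within the array, and gray lines are the means of 3 arrays. The cornea (888 to 1268) lies above and the lens (57.8 to 66.9) below all other tissues, and the lens groups of a tissue lie close together.

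Over the 3 lens groups, the mean scaled signal was 1029 ± 208 (SD, n = 3 arrays, as for all means here) in the cornea, 287 ± 48.7 in the LGN and 283 ± 45.7 in the iris. It was 248 ± 9.82 in the RPE/choroid, 237 ± 34.3 in the sclera, 198 ± 20.8 in the retina, 150 ± 15.9 in the SCN and 63.7 ± 5.06 in the lens. After scaling, the mean of the cornea was therefore 16.2 times that of the lens and 3.58 times that of the LGN, the next tissue in the order. In a limma fit with tissue and lens group as terms, mmu-miR-21a-5p differed between tissues (adjusted p = 1.36e-12 over all miRNAs tested). Such a difference was the rule, since 92% of the 251 miRNAs tested passed. The 3 arrays of a tissue differ in lens group. The test is set against what remains between them after the common lens term, and not against the spread between mice.

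Of the 28 pairs of tissues, 21 differed in mmu-miR-21a-5p (limma, adjusted over all miRNAs and pairs, where 60.7% passed). In these scaled signals the cornea differed from each of the 7 other tissues, and so did the lens. Neighbours in the middle of the order could not be separated: LGN and iris (adjusted p = 1), iris and RPE/choroid (0.27), RPE/choroid and sclera (0.737) and sclera and retina (0.114). The retina and the SCN differed (0.013), as did the SCN and the lens (2.33e-07). The 2 probes of this miRNA put the 8 tissues in the same order, although the dimmer one was detected on 21 arrays only.

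The other 3 miRNAs were dim, and each was detected in a few tissues only. mmu-miR-146a-5p was detected on 8 of 24 arrays, mmu-miR-155-5p on 7 and mmu-miR-146b-5p on 5. Their opposite strands, mmu-miR-21a-3p, mmu-miR-146a-3p, mmu-miR-146b-3p and mmu-miR-155-3p, and the relatives mmu-miR-21b and mmu-miR-21c, were detected on 0 arrays.

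mmu-miR-146a-5p had its highest signal in the RPE/choroid, with 13.1 ± 1.82 in the normal, 15.96 ± 2.21 in the 0 D and 12.9 ± 1.82 in the −30 D group. In the iris it was at 6.43 ± 1.15, 6.58 ± 0.98 and 5.98 ± 1.22 in the same order. In the sclera it was at 8.15 ± 1.43 (normal) and 8.25 ± 2.05 (0 D) while the −30 D array did not detect it. The 3 values of the RPE/choroid lay above all others, and the detected values of iris and sclera lay between 5.98 and 8.25.

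mmu-miR-155-5p was detected in the same tissues. It was at 7.12 ± 1.45, 5.81 ± 1.64 and 6.56 ± 1.43 in the RPE/choroid and at 4.86 ± 1.07, 4.85 ± 0.876 and 5.42 ± 1.19 in the iris (normal, 0 D and −30 D). In the sclera it was detected on the normal array only, with 3.72 ± 1.23 against a limit of 3.70. All 7 arrays that detected mmu-miR-155-5p also detected mmu-miR-146a-5p, which had 1 more, the 0 D array of the sclera. How often other dim miRNAs share their arrays in this way was not counted.

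mmu-miR-146b-5p, the near copy of mmu-miR-146a-5p, was seen in other tissues. In the SCN it was at 5.79 ± 1.78, 5.94 ± 1.26 and 5.80 ± 1.57 (normal, 0 D and −30 D). Outside the SCN it was detected on 2 arrays, at 3.46 ± 1.06 in the LGN and 3.41 ± 0.916 in the retina, both with the 0 D lens. None of its 5 arrays was among the 8 of mmu-miR-146a-5p, and how often dim miRNAs share no array was not counted over all miRNAs. The pair, whose sequences differ at 2 positions, thus differed in where it passed the limit of detection. In the LGN the brighter probe of mmu-miR-146a-5p read 1.93 to 2.40, under limits of 2.92 to 3.73. That of mmu-miR-146b-5p read 2.62 to 3.46 there, so that the LGN does not set the pair apart.

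**Figure D2:**
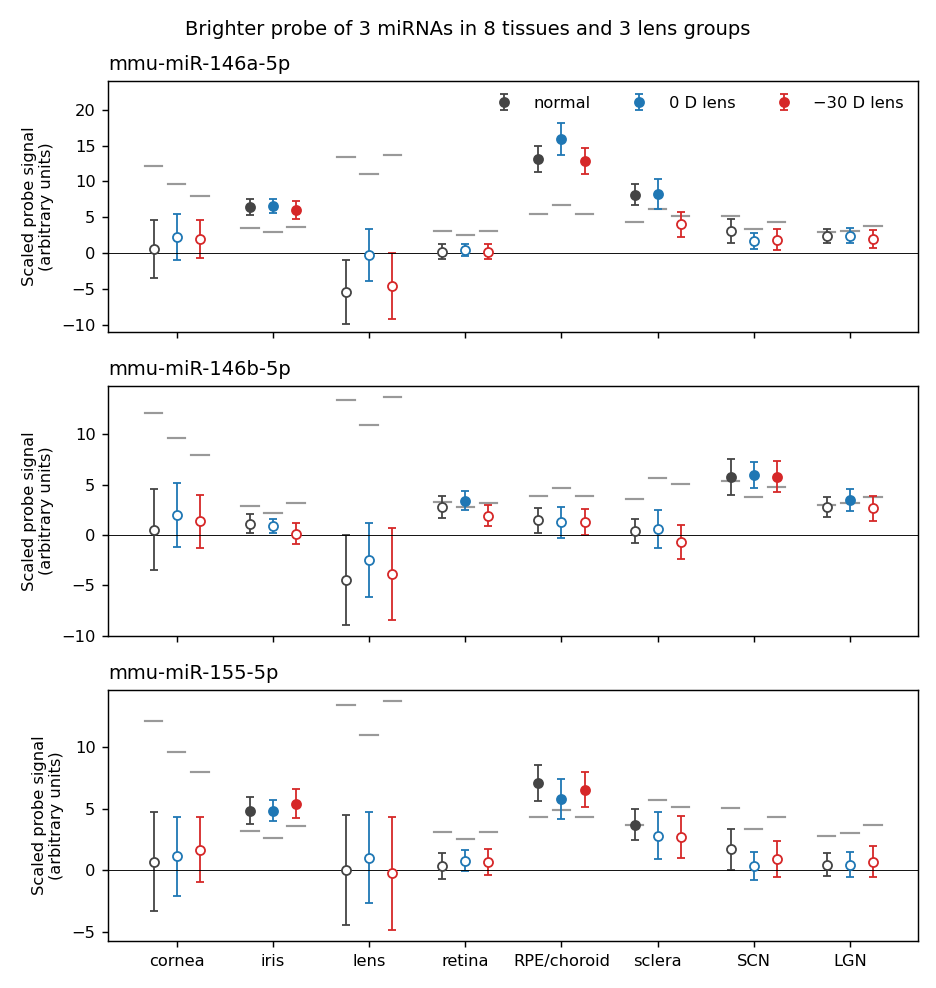
Scaled signal of the brighter probe (arbitrary units) of mmu-miR-146a-5p, mmu-miR-146b-5p and mmu-miR-155-5p by tissue and lens group. Bars are the error within the array, gray ticks the limit of detection (3 errors), filled points detected and open points not detected. mmu-miR-146a-5p and mmu-miR-155-5p exceed the limit in iris, RPE/choroid and sclera and mmu-miR-146b-5p in SCN, while the limits of cornea and lens lie at 7.93 to 13.7, above most detected values.

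The limit of detection, in scaled units, was not the same in all tissues. For mmu-miR-146a-5p it was 7.95 to 12.1 in the cornea and 11.0 to 13.7 in the lens, against 2.94 to 3.66 in the iris and 2.55 to 3.11 in the retina. Part of this difference came from the scaling. On the normal arrays it raised the signal of mmu-miR-21a-5p from 473 to 931 in the cornea and from 22.1 to 57.8 in the lens. It lowered that signal from 348 to 240 in the iris and from 289 to 194 in the retina. A scaled level like that of the iris was not detectable in the cornea or the lens at these limits. In the retina it would have been, and there the brighter probe of mmu-miR-146a-5p read 0.182 to 0.443 and that of mmu-miR-155-5p 0.364 to 0.798, in each case under 1 error. Where mmu-miR-146b-5p was not detected in LGN and retina, its probe read 2.78 and 2.80 on the normal arrays of retina and LGN, just under limits of 3.22 and 2.95. With the −30 D lens it read 1.90 and 2.62 there, further under limits of 3.12 and 3.78.

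The log2 fit is of no use for these 3 miRNAs, because a floor of 9.93 had to be set for it. mmu-miR-146a-5p passed the filter of detection on 8 of 24 arrays only through the tissues where it is high, and its values outside the RPE/choroid were all at the floor, which leaves no spread to test against. Its result in that fit is therefore not read. mmu-miR-146b-5p and mmu-miR-155-5p did not pass this filter.

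A second fit, chosen after the data were seen, used the sum of all probes on an inverse hyperbolic sine scale, without a detection limit. This scale is linear near 0 and close to log2 for bright signals. Sums under 0 were set to 0, which can take spread away, and the errors within an array do not enter the fit. In the lens the brighter probes of mmu-miR-146a-5p and mmu-miR-146b-5p read under 0 on every array. In this fit all 4 miRNAs differed between tissues (limma F test, 69.7% of 1155 miRNAs passed). The adjusted p was 1.34e-11 for mmu-miR-21a-5p, 2.60e-08 for mmu-miR-146a-5p, 1.67e-07 for mmu-miR-146b-5p and 4.61e-09 for mmu-miR-155-5p. Of the 28 pairs of tissues, 20 differed for mmu-miR-21a-5p and 18 for each of the other 3, where 36.1% of all pairs passed. For these 3, the counts include pairs with the cornea or the lens, where the limits of detection were high.

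On this scale, mmu-miR-155-5p was higher in the RPE/choroid than in the iris by 0.28 (adjusted p = 0.00311) and higher in the iris than in the sclera by 0.33 (adjusted p = 0.000718). The limits of detection in the sclera (3.70 to 5.69) reached above the iris signals (4.85 to 5.42). Among the retina, the SCN and the LGN no pair differed. The fit also put the sclera above each of them and above the cornea and the lens. That is not read, since only 1 of 3 sclera arrays detected the miRNA. The probe readings of the sclera (2.72 to 3.72) lay under the limits of detection in the cornea and the lens (7.96 to 13.7). They overlapped those in the SCN (3.34 to 5.05), the LGN (2.83 to 3.69) and the retina (2.56 to 3.11). mmu-miR-146a-5p was higher in the RPE/choroid than in the iris by 0.85 (adjusted p = 7.16e-05), while iris and sclera did not differ beyond their spread (0.01, adjusted p = 1). mmu-miR-146b-5p was higher in the SCN than in the iris, the RPE/choroid, the sclera, the retina and the LGN. The difference was 0.45 against the LGN (adjusted p = 7.39e-05) and 0.51 against the retina (2.24e-05). The fit also put the SCN above the cornea and the lens. That is not read, since the limits of detection there (7.93 to 13.7) lay above the SCN signals (5.79 to 5.94). The LGN and the retina did not differ beyond their spread (0.06, adjusted p = 0.757).

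The leukocyte marker miR-223-3p and the endothelial marker miR-126a-3p were high in the tissues that had mmu-miR-146a-5p and mmu-miR-155-5p. miR-223-3p, a miRNA of neutrophils and macrophages, was detected on 17 arrays, among them all 8 of mmu-miR-146a-5p, all arrays of SCN and LGN and 2 of the cornea. Of the leukocyte list of 4 miRNAs, 3 were detected on any array, and mmu-miR-142a-5p on none. mmu-miR-142a-3p, which is found in all blood cells, was detected on 3 arrays (at most 5.17) and mmu-miR-150-5p, a lymphocyte miRNA, on 4 arrays, all of the SCN or the LGN (at most 5.40).

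The summed scaled signal of the leukocyte list was 52.6 to 63.4 in the RPE/choroid, 42.0 to 56.8 in the sclera and 37.0 to 50.02 in the iris. It was 0 to 25.5 in the cornea, 4.85 to 12.5 in the SCN and 8.12 to 11.0 in the LGN, and 0 on all arrays of lens and retina. In the RPE/choroid, sclera and iris most of the sum was miR-223-3p (52.6 to 58.2, 42.0 to 56.8 and 37.0 to 46.6). There the sum mostly describes that miRNA and not the list. It takes undetected miRNAs as 0 and adds signals that cannot be compared between miRNAs, so that it is not a measure of leukocytes. In the lens, where the limits of detection of the dim miRNAs were high, a sum of 0 does not show absence. Of the endothelial list of 2 miRNAs, miR-126a-3p was at 1030 to 1203 in the RPE/choroid, 329 to 350 in the iris and 243 to 393 in the sclera. It was at 160 to 215 in the SCN and the LGN, 67.5 to 75.1 in the retina, 86.5 on 1 array of the cornea and not detected in the lens. mmu-miR-126a-5p was detected on 2 arrays, both of the RPE/choroid. The part of leukocytes and of endothelium in the values of mmu-miR-146a-5p and mmu-miR-155-5p was not tested.

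**Figure D3:**
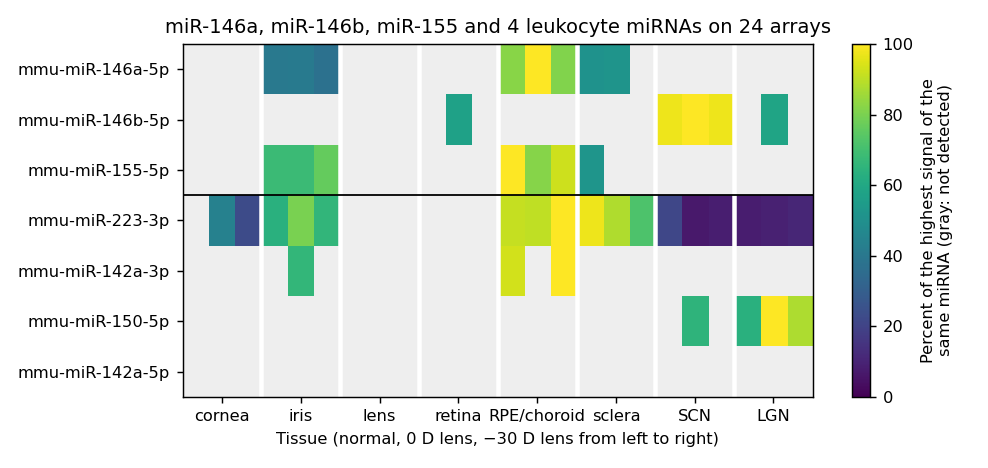
Scaled signal of mmu-miR-146a-5p, mmu-miR-146b-5p, mmu-miR-155-5p and 4 leukocyte miRNAs on 24 arrays, as a percentage of the highest signal of the same miRNA. Columns are arrays ordered by tissue and, within a tissue, normal, 0 D and −30 D lens, and gray cells are not detected. mmu-miR-146a-5p and mmu-miR-155-5p share 7 arrays of iris, RPE/choroid and sclera, where miR-223-3p is also present, and mmu-miR-146b-5p shares none with them.

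As a description over the 24 arrays on the inverse hyperbolic sine scale, the Pearson correlation of mmu-miR-146a-5p was 0.941 with mmu-miR-155-5p, 0.871 with miR-223-3p and −0.198 with mmu-miR-146b-5p. The arrays of a tissue share that tissue, so that these values mostly describe 8 tissues. On the same scale, the miRNAs most like mmu-miR-146a-5p among 306 candidates were mmu-miR-511-3p (r = 0.939), miR-223-3p and mmu-miR-7020-5p (0.833). mmu-miR-511-3p was also the most like mmu-miR-155-5p (0.917), followed by miR-223-3p (0.829) and mmu-miR-143-3p (0.81). Those most like mmu-miR-146b-5p were mmu-miR-384-5p (0.951), mmu-miR-495-3p (0.943) and mmu-miR-377-3p (0.941).

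Among the 78 other miRNAs detected on all 24 arrays, those most like mmu-miR-21a-5p in log2 signal were mmu-miR-15a-5p (r = 0.854), mmu-miR-23b-3p (0.772) and mmu-miR-15b-5p (0.664). With log2 values over the 8 tissue means, those most like mmu-miR-146a-5p were mmu-miR-99a-5p (0.566), mmu-miR-3473b (0.514) and mmu-miR-24-3p (0.404), but here mmu-miR-146a-5p had a value above the floor in 1 tissue only. For mmu-miR-146b-5p and mmu-miR-155-5p, no such value could be given, since all their signals lay under the floor.

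The lens groups were compared over the 6 ocular tissues. In the normal and −30 D groups these were cut from the right eyes of the same 3 mice per group, and for the 0 D group the animals are not described. The tissues are therefore not independent replicates, and the intervals and p-values below, which treat them as such, are too small for a difference between mice. mmu-miR-21a-5p moved little with the −30 D lens. Between the −30 D and the normal array, its log2 ratio amounted to 0.22 ± 0.18 in the iris, 0.20 ± 0.25 in the lens and 0.08 ± 0.18 in the RPE/choroid. It was −0.07 ± 0.18 in the cornea, −0.11 ± 0.19 in the retina and −0.29 ± 0.18 in the sclera. The signal was thus higher in 3 and lower in 3 of the 6 ocular tissues, and the brain regions also went apart, with −0.30 ± 0.19 in the SCN and 0.47 ± 0.18 in the LGN.

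Over the 6 ocular tissues the mean log2 ratio for −30 D against normal was 0.00 (SE 0.075, 95% confidence interval −0.16 to 0.17, adjusted p = 0.998, limma with tissue as a block). The exact sign permutation test over the 6 tissues (two-sided) gave p = 0.938, and of the 88 miRNAs detected on all 18 ocular arrays 2.27% were higher and 3.41% lower in 6 of 6 tissues. In this contrast 0 of 234 miRNAs passed in limma after adjustment (0% higher and 0% lower), and 13 higher and 13 lower had an unadjusted p under 0.05.

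With the 0 D lens, which has no power, the signal of mmu-miR-21a-5p lay above the normal array in 6 of 6 ocular tissues. The log2 ratio of these arrays was 0.46 ± 0.18 in the iris, 0.45 ± 0.18 in the cornea and 0.21 ± 0.25 in the lens. It was 0.18 ± 0.18 in the retina, 0.13 ± 0.18 in the sclera and 0.11 ± 0.18 in the RPE/choroid. In the cornea and the iris the ratio was above its error, and in the other 4 ocular tissues it was about as large as its error or smaller. These errors hold no spread between arrays, slides or mice, so that they do not test a change in a tissue.

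Over the 6 ocular tissues the mean log2 ratio for 0 D against normal was 0.26 (SE 0.075, 95% confidence interval 0.09 to 0.42, unadjusted p = 0.0054), and it did not pass after adjustment over 234 miRNAs (limma, adjusted p = 0.187). The exact sign permutation test (two-sided) gave p = 0.0313, the smallest value that 6 tissues allow. Of the same 88 miRNAs, 14.8% were likewise higher with the 0 D lens in 6 of 6 tissues, and 6.82% lower. None of the 234 miRNAs passed in limma (0% in each direction), while 21 higher and 11 lower had an unadjusted p under 0.05.

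The scaling takes part in this result. It moved all log2 ratios of 0 D to normal by −0.47 in the iris, −0.32 in the retina, −0.20 in the cornea and −0.12 in the lens, and by 0.17 in the RPE/choroid, with 0.20 in the sclera. When left unscaled, mmu-miR-21a-5p was higher with the 0 D lens in 4 of 6 ocular tissues, with the direction turned in RPE/choroid and sclera, and its mean log2 ratio was 0.38 (exact sign permutation test, p = 0.125). With quantile normalization it was higher in 4 and lower in 1 of the 6, with a mean of 0.22 (exact sign permutation test, p = 0.125). In the brain regions the ratio for 0 D against normal stood at −0.19 ± 0.19 in the SCN and 0.43 ± 0.18 in the LGN.

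**Figure D4:**
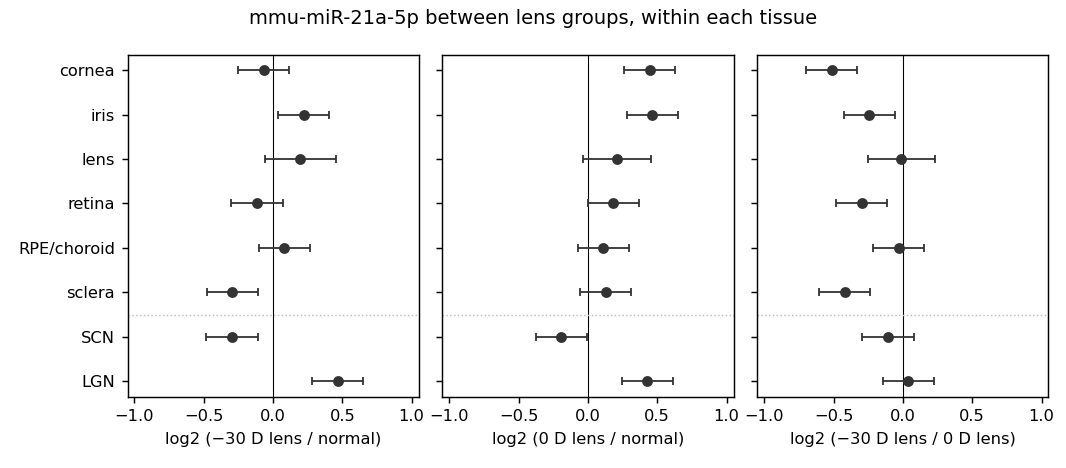
Log2 ratio of the scaled signal of mmu-miR-21a-5p between lens groups in each tissue, with the error from both arrays. Panels from left to right are −30 D against normal, 0 D against normal and −30 D against 0 D lens, and the dotted line separates the ocular tissues from the brain regions. In the 6 ocular tissues the ratios of 0 D to normal are all above 0 (0.11 to 0.46) and those of −30 D to 0 D all below 0 (−0.51 to −0.01).

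Against the 0 D lens, mmu-miR-21a-5p was lower with the −30 D lens in 6 of 6 ocular tissues. The log2 ratio was −0.51 ± 0.18 in the cornea, −0.42 ± 0.18 in the sclera, −0.30 ± 0.18 in the retina and −0.24 ± 0.18 in the iris. In the RPE/choroid (−0.03 ± 0.18) and the lens (−0.01 ± 0.24) it was far within the error. The mean was −0.25 (SE 0.075, 95% confidence interval −0.42 to −0.09, limma adjusted p = 0.0936) and did not pass, and the exact sign permutation test gave p = 0.0313. Without scaling, all 6 were lower with a mean of −0.43 (exact p = 0.0313), and with quantile normalization 5 of 6 were, with a mean of −0.18 (exact p = 0.188). Of the 88 miRNAs, 10.2% were lower and 5.68% higher in 6 of 6 tissues in this contrast, and of 234 in limma 0.855% passed as lower and 0% as higher. Both contrasts of the 0 D lens share the same 0 D arrays, so that they are not 2 independent results.

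By the study's criteria for a change within a tissue (ratios over 2 or under 0.5 where both arrays detect the miRNA, and over 5 or under 0.2 where a single one does), mmu-miR-21a-5p met none in any of the 8 tissues and 3 contrasts. Its largest log2 ratio was −0.51, between −30 D and 0 D lens in the cornea. The criteria were met by the dim miRNAs, each time because 1 of the arrays did not detect the miRNA and was set to 0.1.

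For −30 D against normal, 2 of the 15 pairs of arrays that could be compared met the criteria. In the sclera mmu-miR-146a-5p and mmu-miR-155-5p passed the limit of detection on the normal array alone, where 14.6% of 247 miRNAs met the criteria as lower. Read directly, the brighter probe of mmu-miR-146a-5p was at 4.04 ± 1.74 with the −30 D lens and 8.15 ± 1.43 on the normal array, a difference of −4.11 ± 2.25. The probe of mmu-miR-155-5p was at 2.72 ± 1.71 and 3.72 ± 1.23, a difference of −0.99 ± 2.11, which is under its error. No lower bound above 1 could be given for either ratio.

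The other 13 pairs, with both arrays detecting the miRNA, showed no ratio near the criteria. For mmu-miR-146a-5p the log2 ratio for −30 D against normal was −0.03 ± 0.29 in the RPE/choroid and −0.11 ± 0.39 in the iris. For mmu-miR-155-5p it was −0.12 ± 0.43 and 0.16 ± 0.45 in the same tissues, and for mmu-miR-146b-5p in the SCN it was 0.00 ± 0.59. The sclera also had less miR-223-3p with the −30 D lens, at 42.0 against 56.8 (log2 ratio −0.44 ± 0.20), and less miR-126a-3p, at 243 against 393. Elsewhere miR-223-3p went both ways in this contrast. It was at 4.85 against 12.5 in the SCN, and in the cornea it was detected with the −30 D lens (13.35) but not on the normal array. The photoreceptor marker miR-183-5p also varied between the sclera arrays (253 to 658). The part of such differences in the scleral value of mmu-miR-146a-5p was not tested.

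For 0 D against normal, 3 of 17 pairs met the criteria. In the sclera mmu-miR-155-5p was lower (13.5% of 245 miRNAs were), with a probe difference of −0.88 ± 2.26. mmu-miR-146b-5p was higher in the retina (7.63% of 249) and in the LGN (4.8% of 250), with probe differences of 0.63 ± 1.41 and 0.66 ± 1.45. All 3 differences were under their errors.

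For −30 D against 0 D lens, 3 of 16 pairs met the criteria, all as lower with the −30 D lens. These were mmu-miR-146a-5p in the sclera (6.61% of 227 miRNAs were lower), with a probe difference of −4.21 ± 2.69, and mmu-miR-146b-5p in the retina (10.6% of 246) and the LGN (8.61% of 244), with −1.51 ± 1.39 and −0.84 ± 1.65. For mmu-miR-146a-5p in the sclera, the differences from the normal and from the 0 D array rest on the same single −30 D array. No lower bound above 1 could be given for either ratio, and a change in 1 tissue cannot be tested. The normal and 0 D arrays of the sclera differed by less than their error (log2 ratio for 0 D against normal 0.02 ± 0.44).

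None of the dim miRNAs passed the test of a common change over the 6 ocular tissues. The test was made on the inverse hyperbolic sine scale, with sums under 0 set to 0, since the log2 fit has the floor. The difference of mmu-miR-146a-5p between −30 D and 0 D lens was −0.19 (95% confidence interval −0.39 to 0.01, limma adjusted p = 0.671), and its 3 contrasts had an unadjusted p of at least 0.0663. There the differences of mmu-miR-146b-5p lay between −0.07 and 0.04 and those of mmu-miR-155-5p between −0.04 and −0.02, with intervals that held 0 in all 3 contrasts. The smallest exact sign permutation p (two-sided) among these 3 miRNAs was 0.0625, for mmu-miR-146a-5p between −30 D and 0 D lens. In this contrast 5 tissues were lower and the remaining difference was 0. No smaller p was then possible, so that this test could not have passed.

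Beside the 4 miRNAs, a list of 15 others that are linked to inflammatory signalling was examined, such as miR-125a and miR-125b, miR-132, miR-34a and miR-181a. Of these, 13 were detected on at least 1 array and 6 on all 24. Of the 11 in the limma fit over tissues, 11 passed, where 92% of all tested did. In the lens contrasts 0 of 11 passed in either direction in each of the 3 contrasts after adjustment (limma). Their median log2 difference was −0.05 for −30 D against normal, −0.02 for 0 D against normal and −0.06 for −30 D against 0 D lens, beside −0.01, 0.01 and −0.04 over all 234 miRNAs.

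Before adjustment 0 of the 11 had a p under 0.05 for −30 D against normal. For 0 D against normal, mmu-miR-125b-5p had a mean log2 difference of 0.16 (unadjusted p = 0.0126) and mmu-miR-34a-5p one of −0.21 (unadjusted p = 0.036). For −30 D against 0 D lens, mmu-miR-125b-5p had −0.17 (unadjusted p = 0.00855, limma). By the criteria within a tissue, the list had 1 higher and 3 lower of 80 pairs for −30 D against normal, 0 and 3 of 79 for 0 D against normal, and 2 and 2 of 78 for −30 D against 0 D lens. Over all miRNAs and tissues, 9.27% were higher and 7.92% lower for −30 D against normal, 8.15% and 7.43% for 0 D against normal, and 7.95% and 7.45% for −30 D against 0 D lens.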

How the data were processed

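For each tissue, total RNA was extracted with the miRNeasy Micro kit, and 100 ng was labeled with cyanine 3 and applied to an Agilent mouse miRNA array. The authors digitized the scans with Agilent Feature Extraction 10.7.1.1 (version from the submitters' processing notes), which subtracts the background and deposited for each probe a total signal, an intensity, with its error. The deposited table of normalized values was not used here, since its 24 value columns could not be assigned to arrays by name.

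The signal of a miRNA was the sum of its probes above 3 errors. Arrays were scaled to the same 75th percentile of 79 miRNAs, those that every array detected, with log2 factors from −1.01 to 1.65. For tests, signals under 9.93, the highest of the arrays' lowest detected signals, were set to this floor, log2 values were taken, and miRNAs detected on at least 8 of 24 (or 6 of 18) arrays were kept, without those at the floor on all arrays. limma 3.58.1 in R 4.3.3 was used with Benjamini-Hochberg adjustment over all miRNAs tested, at 0.05. Tissues were compared on 24 arrays with lens group as a term, and lens groups on the 18 ocular arrays with tissue as a block. The fit was tested on simulated data. Within a tissue, an undetected miRNA was set to 0.1, and a bound was computed with the undetected side at 3 errors for each probe, or at the lowest signal detected on that array if higher. Errors of log2 ratios combine the errors of both arrays. The number of arrays limits the precision.

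The 4 miRNAs and the lists were chosen with earlier results of these data known. The miRNAs named are these 4, their opposite strands and relatives, the miRNAs most like each by Pearson correlation, and those of the lists. The relatives mmu-miR-21b and mmu-miR-21c, and the likeness on the inverse hyperbolic sine scale (miRNAs detected on at least 5 arrays), were added after the data were seen. Other settings tried were unscaled signals, quantile normalization, a 75th percentile taken over all miRNAs, the total gene signal as printed, undetected miRNAs at 0.1 or at the lowest detected signal, other filters, normexp with offset 50 on the median spot signals, other sets of arrays and a 3-fold criterion. The 75th percentile over all miRNAs fell on undetected miRNAs on every array, so that this setting left the signals unscaled. Python 3.11.15, numpy 2.4.6, pandas 2.3.3 and matplotlib 3.10.9 were used.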

Additional observations from a re-analysis of the deposited data

How the results depend on the processing

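Of the 4 miRNAs, 2 differed between tissues in the fit reported (mmu-miR-21a-5p, and mmu-miR-146a-5p, whose test the floor makes void). The number was 1 with quantile normalization, 1 with the total gene signal as printed and 1 with only miRNAs detected on every array, and 4 on the inverse hyperbolic sine scale, which was added after the data were seen. With quantile normalization and the printed signal the floor rose to 17.8 and 19.2, above all values of mmu-miR-146a-5p. With 1 lens group left out the number was 1 to 2: without the normal or without the 0 D arrays, mmu-miR-146a-5p was detected on too few arrays for the filter. The 5 other alternatives gave 2, among them no scaling and the 75th percentile over all miRNAs, which are the same values.

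In the 3 lens contrasts, 0 of the 4 miRNAs were called in limma, here and under all alternatives. The fit reported tested mmu-miR-21a-5p and mmu-miR-146a-5p only, quantile normalization left mmu-miR-21a-5p alone, and mmu-miR-146b-5p was tested on the inverse hyperbolic sine scale. The exact sign permutation test gave 1, mmu-miR-21a-5p, for 0 D against normal and 1 for −30 D against 0 D lens. The dim miRNAs could not pass it, since their log2 values lay at the floor in all or most tissues. Over all alternatives the adjusted p of mmu-miR-21a-5p was 0.109 to 0.649 for 0 D against normal, 0.0841 to 0.373 for −30 D against 0 D lens and 0.736 to 1 for −30 D against normal. Its direction held in the first 2 of these contrasts. For −30 D against normal, where the mean log2 ratio was 0.00, it turned to −0.0468 without scaling, to −0.0459 with the printed signal and to −0.0028 with normexp. The 75th percentile over all miRNAs left the signals unscaled, so that its −0.0468 is the same result and not a separate one. With 1 tissue left out the mean log2 ratio was −0.0401 to 0.0628, and it was below 0 without the iris, the lens or the RPE/choroid.

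The calls within a tissue were 2 for −30 D against normal, 3 for 0 D against normal and 3 for −30 D against 0 D lens. With undetected miRNAs at the lowest detected signal of the array they were 0, 0 and 0, so that all of them rest on the value of 0.1. The other alternatives gave 2, 3 and 3 to 4.

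The lens contrasts were paired by tissue. Beyond this, no paired analysis was possible because each tissue and lens group has 1 array, with no replicate number to pair. Slide and lens group are the same split, so that the lens term of the tissue fit is also a slide block, while the lens contrasts could not be blocked by slide, and the deposited normalized values were not run as an alternative. The limit of detection restricts what can be said of the dim miRNAs. In the cornea and the lens it lay at 7.93 to 13.7 in scaled units, which the scaling there raised. This was above most of the signals of mmu-miR-146a-5p, mmu-miR-146b-5p and mmu-miR-155-5p elsewhere.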
